A study of Mus musculus with 4 samples.

Results

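The interferon-induced antiviral genes Ifit1, Ifit2, Ifit3, Ifit3b, Mx1, Mx2, Rsad2, Ifi44, Bst2 and Ifitm3 were followed in a mouse hepatic stellate cell line exposed to palmitic acid (PA), a saturated fatty acid. The genes were chosen by name, with earlier results of these data known, and every probe annotated to one of them was used. Their counts beside those of all genes are therefore a description. They make up 10 of the 26793 gene names and 15 of the 41146 probes with a usable value. All 10 were found, 4 of them with more than 1 probe and 6 with 1 probe.

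Total RNA of the line IMS/N was hybridized to 4 one-colour arrays, 1 for each condition. The conditions were PA with medium in which adipose tissue-derived stem cells had grown (ADSC medium), PA alone, ADSC medium alone, and control, with neither. In all 4 the cells came from livers of normal 129/Sv mice and had been immortalized with SV40 virus, and in both ADSC medium conditions the medium came from stem cells of inguinal fat of male C57BL/6J mice aged 8 to 10 weeks. The sources used here state neither the amount and duration of PA nor the medium of the control cells. Each condition had 1 array, so no difference below carries a p-value, and none has a check in a second culture. The only repeat measurement was between spots of the same probe within an array. Fewer cells expressing a gene and less RNA per cell cannot be told apart in such bulk RNA.

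These genes belong to the program that type I interferons switch on. Interferon alpha or beta binds the receptor IFNAR, the kinases JAK1 and TYK2 become active, and a complex that includes STAT2 and IRF9 binds the interferon-stimulated response element in the promoters of target genes. The products act at different steps of a viral life cycle. IFIT proteins are tetratricopeptide-repeat proteins that bind viral RNA or restrain translation, Mx proteins are dynamin-like GTPases that trap viral components, viperin (Rsad2) is a radical-SAM enzyme that converts CTP into a chain-terminating nucleotide, tetherin (Bst2) holds budding virions at the cell surface, and IFITM3 hinders fusion of enveloped viruses in endosomes. In liver the program is best known from hepatitis virus infection, and stellate cells, the main producers of matrix in fibrosis, can mount it as well.

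Promoter sequence is shown first because the response element can be looked for by its letters. RefSeq promoter windows (GRCm38.p6, 300 bases around the start site) were held for 8 of the members, in 9 windows, since Ifit2 has 2; Mx1 and Mx2 were not looked up further. The core of the response element (the letters GAAA, any 2 bases, then GAAA), searched on both strands, stood in 6 of these 8 genes, against 3.99% of 27025 genes with such windows. The members were picked as interferon-induced genes, so this share describes the choice of genes and not the PA difference. Ifit3 and Ifit3b, which are near-copies, count as 2 of the 6. The sequences below run 5′ to 3′ on the strand of the gene and give the 200 bases before the start site, except for Ifitm3, where the first 30 bases from the start site are shown. Capitals mark the core, which reads TTTC, any 2 bases, TTTC when it lies on the opposite strand.
Ifit1 (chr19:34640689-34640888, + strand): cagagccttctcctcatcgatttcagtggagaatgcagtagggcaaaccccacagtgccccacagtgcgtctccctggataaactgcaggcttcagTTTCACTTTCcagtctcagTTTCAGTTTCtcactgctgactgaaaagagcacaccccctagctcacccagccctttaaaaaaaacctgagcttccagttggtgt
Ifit3 (chr19:34583329-34583528, + strand): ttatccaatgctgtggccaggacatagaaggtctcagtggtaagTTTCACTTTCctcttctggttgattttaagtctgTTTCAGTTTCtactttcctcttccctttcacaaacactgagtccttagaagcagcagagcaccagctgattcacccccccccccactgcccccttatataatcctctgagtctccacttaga
Ifit3b (chr19:34607757-34607956, + strand): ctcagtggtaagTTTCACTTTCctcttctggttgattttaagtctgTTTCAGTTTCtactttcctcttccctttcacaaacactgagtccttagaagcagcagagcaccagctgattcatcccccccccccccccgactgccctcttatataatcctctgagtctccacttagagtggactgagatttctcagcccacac
Rsad2 (chr12:26456453-26456652, - strand): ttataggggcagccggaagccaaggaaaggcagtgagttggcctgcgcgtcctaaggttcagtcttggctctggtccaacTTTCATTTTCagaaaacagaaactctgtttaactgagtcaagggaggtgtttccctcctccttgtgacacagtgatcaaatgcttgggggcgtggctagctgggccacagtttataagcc
Bst2 (chr8:71537473-71537672, - strand): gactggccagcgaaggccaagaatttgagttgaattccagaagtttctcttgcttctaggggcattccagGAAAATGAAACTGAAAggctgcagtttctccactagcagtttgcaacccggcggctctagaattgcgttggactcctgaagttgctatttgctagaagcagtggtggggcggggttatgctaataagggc
Ifitm3 (chr7:141010715-141010744, - strand): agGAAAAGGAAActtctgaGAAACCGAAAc
Ifi44 (chr3:151749911-151750110, - strand): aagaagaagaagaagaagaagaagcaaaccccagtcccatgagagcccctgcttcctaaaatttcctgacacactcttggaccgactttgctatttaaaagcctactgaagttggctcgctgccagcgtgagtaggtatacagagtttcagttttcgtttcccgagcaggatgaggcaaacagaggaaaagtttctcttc
Ifit2, first window (chr19:34550494-34550693, + strand): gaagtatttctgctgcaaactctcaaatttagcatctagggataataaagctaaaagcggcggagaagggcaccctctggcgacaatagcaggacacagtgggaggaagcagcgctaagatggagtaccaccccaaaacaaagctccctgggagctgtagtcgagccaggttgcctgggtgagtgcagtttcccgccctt
Ifit2, second window (chr19:34550888-34551087, + strand): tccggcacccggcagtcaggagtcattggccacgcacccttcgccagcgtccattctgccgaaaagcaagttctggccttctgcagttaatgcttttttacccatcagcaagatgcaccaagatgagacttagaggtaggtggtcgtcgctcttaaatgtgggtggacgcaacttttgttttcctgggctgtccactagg

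Positions were counted from the start site, itself not counted, with bases before it negative. Ifit1 carried the core at -104 to -95 and at -85 to -76. Ifit3 had it at -156 to -147 and -122 to -113, and Ifit3b at -188 to -179 and -154 to -145. The Ifit3 and Ifit3b windows shared an identical run of 169 of 300 bases, with both cores inside it, while the longest run shared by Ifit3 and Ifit1 was 13 bases. Rsad2 held 1 core at -120 to -111. Bst2 held 2 that overlap each other, at -130 to -121 and -124 to -115. In Ifitm3 both cores lay just after the start site, at bases 2 to 11 and 19 to 28. Neither window of Ifit2 and not the Ifi44 window held these letters. Another motif, the gamma-activated site known from interferon gamma signalling (TTCNNNGAA, both strands), stood in 3 of the 8 genes, namely Bst2, Ifitm3 and Ifit2, against 9.55% of all genes, and in Bst2 and Ifitm3 it overlapped a response element core. When the spacer between the 2 GAAA groups was allowed to be 1 to 3 bases, 7 of the 8 genes held a match, Ifi44 being the added one, against 9.91% of all genes. Among other interferon-induced effectors, 12 of 30 genes with a window held the core. A match of letters is not a measured binding site.

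Levels are log2 fluorescence after quantile normalization over the 4 arrays, and a difference of 1 on this scale is 2-fold. A gene with several probes is represented by its brightest. Levels of different genes come from different probes and were not set against each other. A probe was counted on an array where the scanner software marked it well above background. This held on all 4 arrays for 9 of the 10 genes and 13 of the 15 probes, the exceptions being both probes of Mx1. Where a gene passed on only 1 of the arrays compared, its difference is a lower bound, set against the lowest level well above background on the dim array. A pair of spots of the same probe differed with an SD of 0.06 at levels from 11 to 13, and of 0.41 below 3. This covers the spot-to-spot error of a measurement and not the variation between cultures. The scanner software's own error estimate was at least 10.0% of the signal for every member spot.

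With PA, 9 of the 10 genes were at least 2-fold higher than in control cells and 0 were lower by that much, while 1.09% of all 18209 genes compared were higher and 0.599% lower by at least 2-fold. The members' median difference was 2.95 on the log2 scale, beside -0.01 over all genes. The values of each gene follow by family, with PA and ADSC medium first, then PA, ADSC medium and control.

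**Figure D1:**
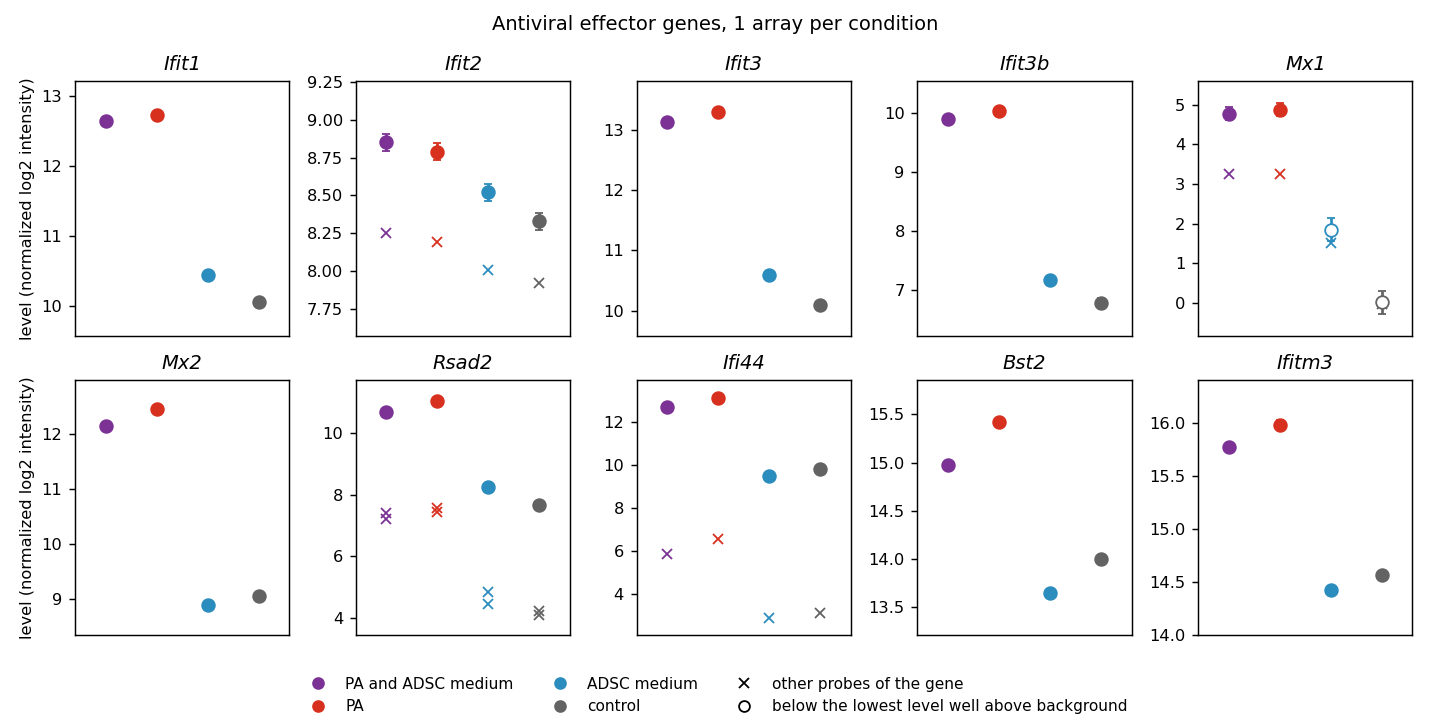
Quantile-normalized log2 level of each member (1 panel per gene, vertical axis) on the 4 arrays, from left PA and ADSC medium, PA, ADSC medium and control; each point is 1 array, crosses are other probes of the gene, bars are the SD between spots of a probe at that level, mostly smaller than the symbol, and open symbols mark a level under the lowest one well above background. In all 10 panels both arrays with PA lie above both arrays without it, by the least in Ifit2 and, in Mx1, with both arrays without PA below the detection limit.

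Ifit1, whose product binds RNA with an incompletely methylated cap, had a level of 12.64 with PA and ADSC medium, 12.73 with PA, 10.44 with ADSC medium and 10.05 in control cells (probe at chr19:34723796-34723855 in mm9). Both arrays with PA stood above both without it. The gene was 6.38-fold higher with PA than in control, a log2 difference of 2.67. Ifit3, an IFIT that in human cells binds and stabilizes IFIT1, had 13.14 with PA and ADSC medium, 13.31 with PA, 10.60 with ADSC medium and 10.09 in control (chr19:34663105-34663164). It was 9.31-fold higher with PA. Ifit3b, its neighbouring near-copy, had 9.90 with PA and ADSC medium, 10.03 with PA, 7.17 with ADSC medium and 6.78 in control (chr19:34687073-34687132). It was 9.54-fold higher with PA, so Ifit3 and Ifit3b stood at nearly the same ratio. Their 2 probes shared no run of letters longer than 8 of 60 bases, but cross-hybridization between transcripts of these near-copies was not tested.

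Ifit2 was the exception in this family. The protein binds AU-rich RNA and is itself an interferon-induced antiviral factor. The level of its brighter probe was 8.85 with PA and ADSC medium, 8.79 with PA, 8.52 with ADSC medium and 8.33 in control (chr19:34650244-34650303). The other Ifit2 probe, at chr19:34648307-34648366, had 8.25 with PA and ADSC medium, 8.19 with PA, 8.01 with ADSC medium and 7.92 in control. On both probes the order of the 4 arrays was the same, with the PA arrays on top, but the steps were small. With PA the gene was 1.37-fold higher than in control by the brighter probe (log2 difference 0.45), and by the other probe the difference was 0.28, each more than the spot SD of 0.08. It ranked 888th of 18209 genes by this difference, against ranks of 7, 9 and 17 for Ifit3b, Ifit3 and Ifit1.

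Along the mouse chromosome 19 cluster the PA difference changed from gene to gene. A probe without a gene name, NAP007796-001, lies 48 bases from that of Ifit3. It was higher by 3.16 with PA, close to the 3.22 of Ifit3, and whether it reads the Ifit3 transcript itself was not tested. Ifit1bl1, an Ifit1-like gene between Ifit3 and Ifit3b, was higher by 0.93. Ifit1bl2 and the transcript AK037052 were not well above background on any array. Beside the cluster, the lysosomal lipase Lipa stood at -0.22, the transporter Slc16a12 at -0.19 and the cholesterol hydroxylase Ch25h, itself known as interferon-induced, at -0.01. Ifit2, below 2-fold on both probes, lay 12802 bases from the probe of Ifit3.

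**Figure D2:**
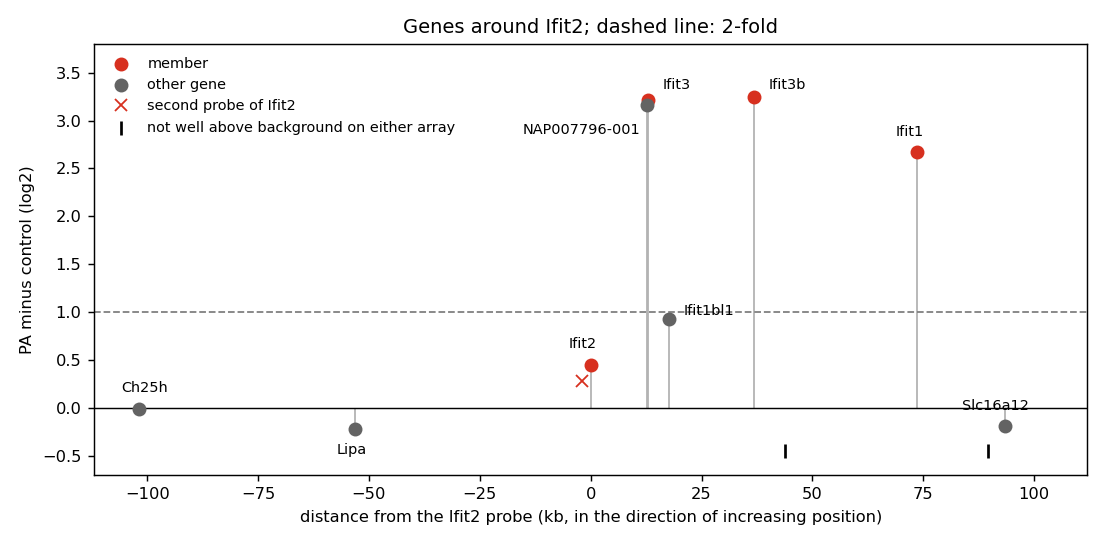
PA minus control difference (log2, vertical axis) of each gene near Ifit2 against the distance of its probe from the brighter Ifit2 probe (kb, horizontal axis); red points are members, grey points other genes, the cross is the second Ifit2 probe, ticks mark genes not well above background on either array, and the dashed line is 2-fold. Ifit3, Ifit3b, Ifit1 and NAP007796-001 stand between 2.67 and 3.25, while Ifit2 (0.45 and 0.28), Ifit1bl1 (0.93), Lipa, Slc16a12 and Ch25h lie below the 2-fold line.

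The 2 Mx genes lie near each other on chromosome 16, with Fam3b between their probes. RefSeq records both as transcribed pseudogenes in the C57BL/6J assembly, since many laboratory strains carry defective Mx alleles; the array measures transcript and not protein, and the alleles of IMS/N cells were not examined. Mx2, a cytoplasmic GTPase in mice that carry intact copies, had a level of 12.13 with PA and ADSC medium, 12.45 with PA, 8.88 with ADSC medium and 9.04 in control (chr16:97782327-97782386). The 2 arrays with PA were far above the 2 without it. With PA the gene was 10.7-fold higher than in control, the highest among the 9 genes with a measured fold and, with bounds taken as values, rank 4 of all 18209.

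Mx1, a nuclear GTPase that acts against influenza viruses in mice, had a level of 4.77 with PA and ADSC medium and 4.87 with PA. Without PA its probe was not well above background, with readings of 1.85 with ADSC medium and 0.02 in control (chr16:97669616-97669675). Mx1 was thus at least 5.44-fold higher with PA than in control, a log2 difference of at least 2.44. Its other probe read 3.25 with PA and ADSC medium, 3.26 with PA, 1.52 with ADSC medium and -0.03 in control, and was well above background only on the 2 arrays with PA, which gave at least 1.78-fold. Under a background model that adds an offset (normexp), the bound of Mx1 was 0.61 log2 units, which is under 2-fold. Of the genes next to the Mx pair, the protease gene Bace2 differed by -0.15 and the cytokine-like Fam3b by at least 0.56, while the protease gene Tmprss2 was not well above background on any array.

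Rsad2 had a level of 10.67 with PA and ADSC medium, 11.03 with PA, 8.25 with ADSC medium and 7.66 in control (chr12:27127859-27127918). It was 10.3-fold higher with PA than in control. Another pair of probes crosses exon junctions, as their positions span 3302 and 3039 bases of chromosome 12, so they can only pair in full with spliced transcript. They are shown for that reason, in the letters of the array and in lower case throughout.
Rsad2 probe over chr12:27135585-27138886 (mm9, - strand): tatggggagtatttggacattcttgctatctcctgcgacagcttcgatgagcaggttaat
Rsad2 probe over chr12:27130424-27133462 (mm9, - strand): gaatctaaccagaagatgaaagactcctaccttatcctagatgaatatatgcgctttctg

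The first junction probe had 7.39 with PA and ADSC medium, 7.55 with PA, 4.84 with ADSC medium and 4.21 in control. The second had 7.20 with PA and ADSC medium, 7.42 with PA, 4.45 with ADSC medium and 4.09 in control. The PA minus control differences of the 3 Rsad2 probes were 3.37, 3.34 and 3.33, so they lay within 0.04 log2 units of each other. Cmpk2, which makes nucleotide triphosphates including the CTP that viperin uses, lies 31070 bases from the brightest Rsad2 probe and 20102 bases from the nearest one, and was higher by 2.71 with PA.

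Ifi44, a cytoplasmic protein with antiviral activity whose mechanism is less well known, had a level of 12.70 with PA and ADSC medium, 13.10 with PA, 9.50 with ADSC medium and 9.82 in control (chr3:151394035-151394094). It was 9.71-fold higher with PA than in control. The other probe of Ifi44, at chr3:151409005-151409064 and named by the array alone, had 5.85 with PA and ADSC medium, 6.54 with PA, 2.89 with ADSC medium and 3.11 in control. Its PA minus control difference was 3.43, beside 3.28 for the brighter probe. The paralog Ifi44l, 27861 bases from the brighter Ifi44 probe and 12891 from the other, was well above background only on the 2 arrays with PA and was higher by at least 1.36.

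Bst2 and Ifitm3 encode membrane proteins and were bright on every array. Bst2 had a level of 14.97 with PA and ADSC medium, 15.42 with PA, 13.65 with ADSC medium and 14.00 in control (chr8:74058603-74058662). Ifitm3 had 15.77 with PA and ADSC medium, 15.98 with PA, 14.42 with ADSC medium and 14.56 in control (chr7:148195591-148195650). In both, the 2 arrays with PA stood above the 2 without it, by a smaller step than in the IFIT, Mx, Rsad2 and Ifi44 genes other than Ifit2. Bst2 was 2.69-fold and Ifitm3 2.68-fold higher with PA than in control, at ranks 116 and 119 of 18209. No spot was saturated by the scanner's flag on any array.

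Ifitm3 sits in a cluster of related genes on chromosome 7. Ifitm6, whose probe lies 6064 bases away, was higher by 1.73 with PA, and Ifitm7, a relative outside the cluster, by 1.24. Ifitm2, Ifitm1 and Ifitm5 stood at -0.39, -0.17 and -0.59. Ifitm6 and Ifitm5 were dim, with levels of 4.92 and 2.79 with PA and 3.19 and 3.38 in control. At levels from 3 to 5 the spot SD of a difference was 0.233, and below 3 it was 0.41. Over all the family relatives on the array, 3 of 12 compared were higher by 2-fold or more with PA (Ifitm6, Ifi44l and Ifitm7), 0 were lower by that much, and the median difference was -0.03. The dynamins, GTPases related to Mx, stood between -0.31 (Dnm3) and 0.07 (Dnm1l). Within 100 kb of a member probe there were 38 genes that are not members. Of the 30 that could be compared, 4 were higher by 2-fold or more with PA and 0 lower, and the median was 0.01. The 4 were Cmpk2, Ifi44l, Ifitm6 and NAP007796-001, all named above. The last was counted as a gene of its own by its array name, though it may read the Ifit3 transcript.

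**Figure D3:**
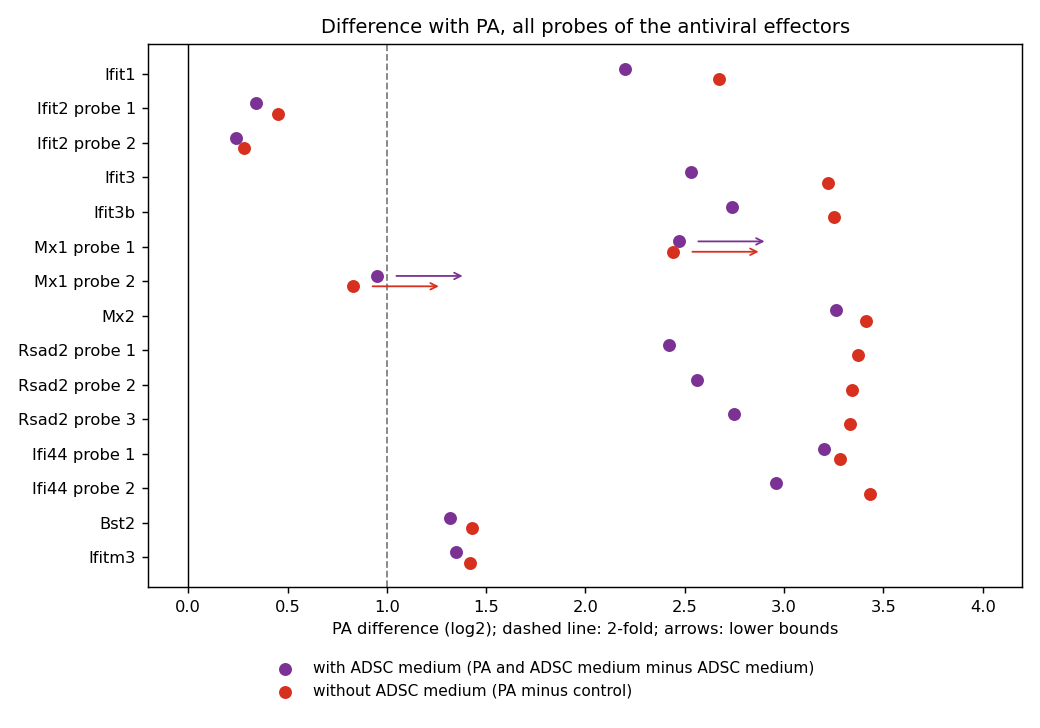
PA difference (log2, horizontal axis) of all 15 member probes, 1 row per probe, without ADSC medium (PA minus control) and with it (PA and ADSC medium minus ADSC medium); arrows mark lower bounds and the dashed line is 2-fold. Probes of 1 gene lie close together for Rsad2 (3.33 to 3.37 without ADSC medium) and Ifi44 (3.28 and 3.43), and both Ifit2 probes stay left of the 2-fold line.

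The second setting of PA, added together with ADSC medium, uses 2 arrays that the comparison above does not. Set against ADSC medium alone, 9 of the 10 genes were higher by 2-fold or more with PA and ADSC medium and 0 were lower, where 1.26% of 18467 genes were higher and 0.477% lower. Their median difference was 2.44, beside -0.02 over all genes. The folds were 9.55 for Mx2, 9.20 for Ifi44, 6.67 for Ifit3b, 5.79 for Ifit3, at least 5.54 for Mx1, 5.35 for Rsad2, 4.59 for Ifit1, 2.54 for Ifitm3 and 2.49 for Bst2. Ifit2 was again the gene under 2-fold, at 1.26. Mx2 and Ifi44 ranked 3 and 4 of all genes in this comparison. Against control cells, 8 of the 10 genes were higher and 0 lower by 2-fold or more with PA and ADSC medium, where 1.81% of 18252 genes were higher and 0.422% lower, with Bst2 just under at 1.97-fold and Ifit2 at 1.43-fold.

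ADSC medium without PA gave small differences in both directions. None of the 9 genes compared was 2-fold higher or lower than in control, where 0.533% of 18198 genes were higher and 0.121% lower. At 1.5-fold, Rsad2 alone was higher and 0 genes were lower, where 2.31% of all genes were higher and 1.29% lower, and Rsad2 missed this threshold with percentile scaling (0.58), with normexp (0.48) and with its probes averaged (0.53). Rsad2 had log2 differences of 0.59, 0.63 and 0.36 on its 3 probes. Ifit3 was higher by 0.51, Ifit1 and Ifit3b by 0.39 each and Ifit2 by 0.18. On the other side, Bst2 stood at -0.34, Ifi44 at -0.33, Mx2 at -0.16 and Ifitm3 at -0.14. Mx1 was below the detection limit on both arrays and had no value. With no filter on dim probes it was called 2-fold higher, from readings of 1.85 with ADSC medium and 0.02 in control. The 4 IFIT genes and Rsad2 were thus on the higher side and Mx2, Ifi44, Bst2 and Ifitm3 on the lower, each by more than the spot SD, which ranged from 0.059 to 0.080 for these 9 genes. How many of all genes differed by more than their spot SD is not given here.

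Added to PA, ADSC medium came with levels at or slightly below those of PA alone. In this comparison 0 of 10 genes were 2-fold lower or higher, where 0.507% of 18751 genes were lower and 1.75% higher. At 1.5-fold it was again 0 of 10 in either direction, where 3.72% of genes were lower and 5.25% higher. Bst2 kept 73.1% of its PA level, Ifi44 75.6%, Rsad2 77.7% and Mx2 80.2%. Ifitm3 kept 86.3%, Ifit3 88.9%, Ifit3b 91.7%, Mx1 93.1% and Ifit1 94.3% of its level. In log2 terms the 10 genes ran from -0.45 for Bst2 to 0.06 for Ifit2, with a median of -0.19 beside -0.02 over all genes. Of the 10 genes 9 were lower, and 8 of them by more than the spot SD, Mx1 and Ifit2 being within it. The share of all genes lower by any amount or by more than their spot SD is not given here. These counts are therefore not read as a trait of the members. Ifit1, Mx1 and Ifit3b, at 1.06-fold, 1.07-fold and 1.09-fold, differed by less than the scanner software's error for a single spot, at least 10.0%. A fold carries the errors of both its spots. Folds just above that error, such as 1.13 for Ifit3 and 1.16 for Ifitm3, are therefore not shown to exceed it. The second probe of Ifi44 stood at -0.68, the other probes of Rsad2 at -0.16 and -0.22. All 10 genes remained above control by 0.52 to 3.13 log2 units with PA and ADSC medium.

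**Figure D4:**
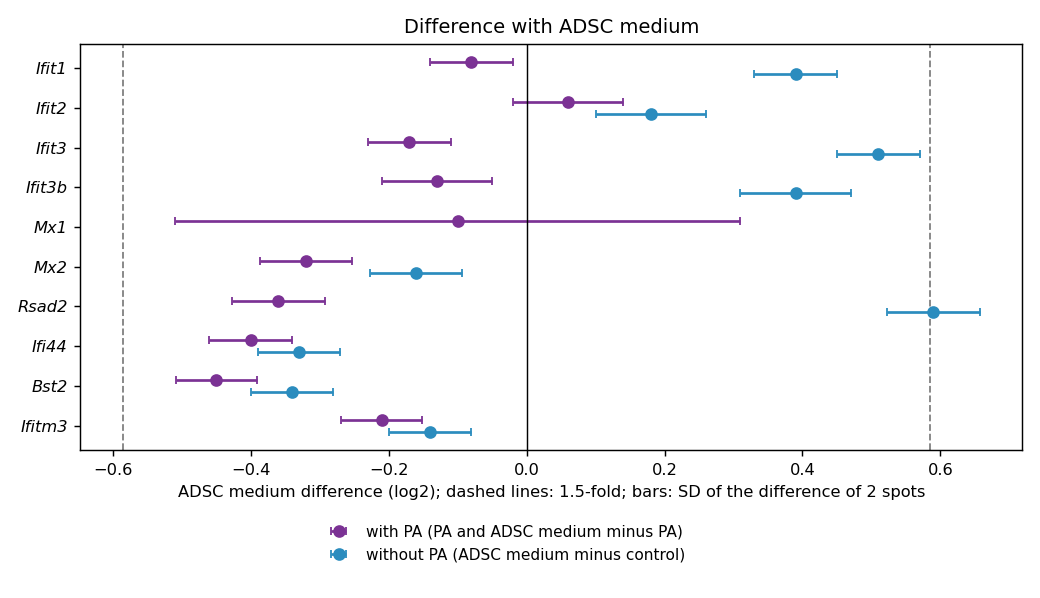
Log2 difference with ADSC medium (horizontal axis) for each member, in the presence of PA (PA and ADSC medium minus PA) and in its absence (ADSC medium minus control); bars are the spot SD of a difference dashed lines are 1.5-fold, and Mx1 has a value with PA only. Ifit1, Ifit3, Ifit3b and Rsad2 lie right of 0 without PA and left of 0 with PA, while Mx2, Ifi44, Bst2 and Ifitm3 lie left of 0 in both and Rsad2 without PA, at 0.59, is the point on the 1.5-fold line.

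The PA difference was smaller with ADSC medium than without it in all 9 genes that had a value on every array, but with percentile scaling it was larger for Ifitm3 (by 0.09) and Bst2 (by 0.01), and with normexp for Ifitm3 (by 0.05). The change of the log2 difference ran from -0.07 for Ifitm3 to -0.95 for Rsad2, through -0.08 for Ifi44, -0.11 for Bst2, -0.12 for Ifit2, -0.16 for Mx2, -0.47 for Ifit1, -0.52 for Ifit3b and -0.68 for Ifit3. The other Rsad2 probes gave -0.79 and -0.58, and the dimmer Ifi44 probe -0.46 where its brighter one gave -0.08. The median of the 9 genes was -0.16, beside -0.01 over 17355 genes, of which 9033 were below 0. For Rsad2 and the IFIT genes the value combines a higher level with ADSC medium alone and a lower or nearly equal level with both. With 1 array a condition this difference of differences was not tested.

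The wider interferon pathway was read from lists of its ligands, receptors, signalling proteins, feedback inhibitors and other effectors. Among the ligands, Ifnb1, the gene of interferon beta, was well above background only on the 2 arrays with PA, with 4.90 with PA and ADSC medium, 5.53 with PA, 1.51 with ADSC medium and 1.41 in control. It was higher by at least 3.11 with PA than in control and by at least 2.60 with PA and ADSC medium than with ADSC medium. Of the 8 interferon genes compared, Ifna2 was higher by 0.94 and the other 6 stood between -0.39 (Ifnl3) and 0.26 (Ifna5), namely also Ifna9 at -0.05, Ifna12 at 0.05, Ifna13 at -0.18 and Ifnab at -0.18. Ifng, Ifna4, Ifne and Ifnk were not well above background on any array. The alpha interferon genes are near-copies of each other, so their probes may share signal.

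The receptor genes differed little with PA, with Ifnar1 at 0.00, Ifnar2 at 0.12, Ifngr1 at -0.06, Ifngr2 at -0.12, Il10rb at -0.05 and Ifnlr1 at 0.40. The kinases Jak1, Jak2 and Tyk2 stood at -0.17, 0.09 and -0.04. Stat2 and Irf9, which act together at the response element, were each at least 2-fold higher, by 1.69 and 1.11. Irf7, the factor that amplifies interferon production, was higher by 2.23, while Irf5 stood at 0.79, Irf1 at 0.55, Irf2 at 0.35, Irf8 at 0.25 and Irf3 at 0.10. That makes 3 of 17 genes of this list at least 2-fold higher and 0 lower by that much, with a median of 0.12. Of 8 feedback genes, Usp18, which blocks signalling at IFNAR, was higher by 2.44, followed by the DNase Trex1 at 0.70 and Socs1 at 0.34, and Socs3 stood lowest at -0.14.

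Of 35 other interferon-induced effectors on the array, 26 were higher by 2-fold or more with PA and 0 lower, and their median was 1.49. The highest were Cmpk2 at 2.71, the oligoadenylate synthetase Oas2 at 2.52, the ADP-ribosyltransferase Parp14 at 2.45 and Oasl2 at 2.41, and the lowest were Ch25h at -0.01 and Ifi27 at 0.12. By the same threshold, 24 of the 35 stood higher with PA and ADSC medium than with ADSC medium. With ADSC medium alone 0 of the 35 differed by 1.5-fold from control, and 27 were lower by some amount, the median being -0.15. The addition of ADSC medium to PA gave a median of -0.24, with 30 of 35 lower and 0 past 1.5-fold, near the members' -0.19. For neither count of genes lower by some amount is the share over all genes given.

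**Figure D5:**
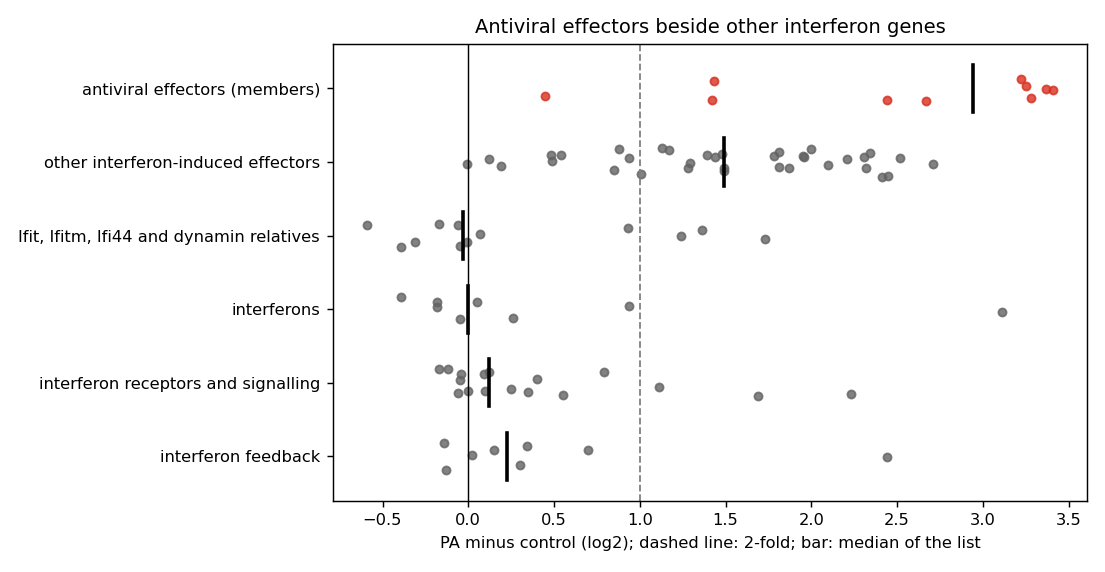
PA minus control difference (log2, horizontal axis) of every gene compared in each list (rows), 1 point per gene, lower bounds drawn at the bound, points spread vertically for legibility, with the median of the list as a bar; the dashed line is 2-fold. The members (median 2.95) and the other effectors (median 1.49) lie mostly right of the line, and the receptor and signalling list (median 0.12) mostly left of it, with Irf7, Stat2 and Irf9 to the right.

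The genes with the most similar pattern were ranked by the distance of their 3 differences from control (PA, ADSC medium, both) to the medians of the members, over 17346 genes well above background on all arrays. These medians were 3.24, 0.29 and 2.94, with Mx1 at its readings, background-level ones included. The closest was NAP007796-001 at a distance of 0.179 log2 units. Its probe lies 48 bases from that of Ifit3 and may read the same transcript, so it may not be a gene outside the members. Next were the nucleic acid sensor Zbp1 at 0.188, the helicase-like Ddx60 at 0.325 and BC023105 at 0.346. Then came the chemokine Cxcl10 at 0.513, the GTPase Iigp1 at 0.696, Cmpk2 at 0.732, the GTPase Gbp6 at 0.856, the cytokine Il6 at 1.02 and Phf11a at 1.04. Zbp1 had a level of 10.47 with PA and ADSC medium, 10.58 with PA, 7.70 with ADSC medium and 7.35 in control. Of these 10 genes, Cxcl10 and Il6 were higher with PA and ADSC medium than with PA alone, by 0.20 and 0.71, while the other 8 were lower. That comparison is fixed by the PA and both differences used for the ranking. Likeness to the members in it was therefore largely built in by the choice of genes. With Mx1 at its bound instead, a choice added after seeing the data, 9 of these 10 genes were among the closest 10 but in another order, with Ddx60 first at 0.186 and NAP007796-001 at 0.432. The comparisons share arrays, so likeness over them is a description.

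The authors' deposited lists name probes without values. Their list of probes higher with PA than in control holds 1580 probes, 3.84% of all, and 9 of the 15 member probes, which stand for every member except Ifit2. The authors' deposited list of probes higher with PA than with PA and ADSC medium holds 920 probes, 2.24% of all, and 0 of the 15 member probes. By the levels computed here, the probes of the second list differed by 0.24 to 2.68 log2 units, and those of the first by 0.08 to 4.85. Both lists come from the same 4 arrays and are no further evidence.

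Markers of the labelled cell type and of others that could bring in interferon-induced transcripts were read on the same arrays. Of 12 stellate markers, 9 were well above background on every array, while Lrat, Reln and Hand2 were not well above background on any. The summed level of the list was 17.29 with PA and ADSC medium, 17.32 with PA, 17.25 with ADSC medium and 17.41 in control. This sum weighs bright genes most, such as Vim at 16.05 to 16.08, and single markers differed more. For PA minus control, 0 of the 9 passed 2-fold, with log2 differences from -0.93 (Pdgfrb) to 0.88 (Des). For ADSC medium minus control, Acta2 alone passed it, at -1.43. When ADSC medium was added to PA, Pdgfrb was higher by more than 2-fold (1.33). Des (-1.13) and Acta2 (-1.02) were lower by more than 2-fold. The leukocyte marker Ptprc, the macrophage markers Adgre1 and Clec4f and the plasmacytoid dendritic cell marker Siglech were not well above background on any array. The macrophage markers Csf1r, Cd68, Lyz2 and Cd5l were well above background on all 4 arrays, and Itgam on 2 of them. For PA minus control, 0 of these 5 passed 2-fold, with log2 differences from -0.78 (Csf1r) to 0.4 (Lyz2). When ADSC medium was added to PA, their differences ran from -0.88 (Lyz2) to 0.51 (Csf1r). The summed level of 8 macrophage markers was 8.17 with PA and ADSC medium, 8.67 with PA, 8.40 with ADSC medium and 8.43 in control, and 4 to 5 of them were well above background. That of 6 plasmacytoid dendritic cell markers was 10.52, 10.36, 10.51 and 10.58 in the same order, with 3 to 5 well above background. Flt3, Irf8 and Tlr9 were so on all 4 arrays, and Tlr9, at 10.31 to 10.54, made up most of the sum. Endothelial Pecam1 and Cdh5, hepatocyte Alb, Apoa1, Ttr and Cyp2e1, and adipocyte Adipoq, Plin1 and Lep were not well above background on any array. The summed level of 5 endothelial markers was 8.72 with PA and ADSC medium, 8.97 with PA, 8.29 with ADSC medium and 8.60 in control, and that of 5 adipocyte markers lay between 10.97 with PA and 12.07 with ADSC medium. Well above background on all 4 arrays were 3 of the endothelial markers (Kdr, Tek and Stab2) and 2 of the adipocyte markers (Fabp4 and Cidec). The part of these lists in the members' differences was not tested. From 67.5% to 70.0% of probes were well above background per array, and the 75th percentile of the unscaled signal was 542 with PA and ADSC medium, 622 with PA, 497 with ADSC medium and 495 in control.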

How the data were processed

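Total RNA of cultured IMS/N cells was labelled with Cy3 and hybridized to 4 Agilent mouse arrays, 1 per condition. The deposited scanner tables, made by the authors with Agilent Feature Extraction 12.1.1.1 (protocol GE1_105_Dec08, array design 014868, mm9 positions, per the file headers), hold processed signal as intensity on a linear scale. The submitters' processing notes name R 3.5.1, and the series' design text names quantile normalization. From the deposited intensities, control spots and 82 to 104 outlier spots per array were left out, log2 values were taken, spots were averaged per probe and the 4 arrays were quantile-normalized (limma 3.58.1, R 4.3.3). Of 41174 probes, 28 lacked a usable spot on at least 1 array and were left out. Probes were named by RefSeq accession (28680) or by the array (12466); of the member probes, 11 were named by accession and 4 by the array. Further steps used Python 3.11.15, numpy 2.4.6 and pandas 2.3.3. A probe passed on an array if over 50% of its spots were flagged well above background. Spot SDs came from 245 probes printed on 10 spots. A called difference was 2-fold, with 1.5-fold as an alternative. The normalization was tested on simulated data. The authors' deposited gene lists carry probe names only and no log2 values.

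All members and probes are named. From other lists the 4 highest and 2 lowest genes by PA minus control, all ligands and receptors measured, genes within 100 kb and the 10 genes most alike were eligible for naming. The members and lists were chosen with earlier results of these data known. No test across samples was possible with 1 array per condition, and precision is limited by that number.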

Additional observations from a re-analysis of the deposited data

Results flagged for a closer look

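For 4 of the genes, cells with ADSC medium stood below cells without it when PA was present and above them when it was absent. Each time the step exceeded the SD between spots of a probe. The scanner software put the error of each of these spots at 10.0% to 10.1% of its signal. With PA the folds were 1.06 for Ifit1, 1.13 for Ifit3, 1.09 for Ifit3b and 1.29 for Rsad2. A fold carries the errors of both its spots, so those of Ifit1, Ifit3 and Ifit3b are not shown to exceed the software's error. For Ifit1 the log2 difference was -0.08 with PA and 0.39 without it. With percentile scaling (-0.03) and normexp (-0.06) the value with PA was no longer beyond the spot SD of 0.06. For Ifit3 it was -0.17 with PA and 0.51 without it. Ifit3b gave -0.13 with PA and 0.39 without it, and Rsad2 gave -0.36 with PA and 0.59 without it. The difference was not tested, since each condition had 1 array, and every value is under 2-fold. The share of all genes that changed side in this way is not given here. The count of 4 is therefore not read as a trait of these genes.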

How the results depend on the processing

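None of the 49 differences between conditions of a member changed sign under any alternative run (scaling to the 75th percentile, normexp background, averaging the detected probes of a gene, no filter on dim probes). Of the 49, 43 moved by less than the spot SD with percentile scaling, 46 with no filter, 37 with probes averaged and 28 with normexp. Normexp gave 8 genes at least 2-fold higher with PA than control in place of 9, 7 in place of 8 with both against control, and 8 in place of 9 with both against ADSC medium, the bounds of Mx1 being 0.61, 0.60 and 0.59. Over all genes, 106 (normexp) and 664 (no filter) were 2-fold higher with PA in place of 199, and 11 and 552 lower in place of 109. The members' median became 2.67 with normexp and 3.24 with no filter for PA minus control, 2.58 and 2.94 for both minus control, and 2.22 (normexp) and 2.37 (probes averaged) for both minus ADSC medium. It became -0.12 with percentile scaling for both minus PA and 0.29 with no filter for ADSC medium minus control, where 1 gene was called at 1.5-fold and 1 with no filter. The median change of the PA difference with ADSC medium became -0.25 (normexp) and -0.27 (probes averaged). By gene it changed sign for Ifitm3 with percentile scaling (0.09) and normexp (0.05) and for Bst2 with percentile scaling (0.01); the cause was not tested. The 4 neighbours past 2-fold stayed 4 within 50 kb. No paired analysis was possible because each condition had 1 array. Limits are the single array per condition, the dim Mx1 probes, near-copies such as Ifit3 and Ifit3b, and the unstated dose of PA.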
